A study of Mus musculus with 384 samples.

Results

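The 76 luminal and 71 basal cells compared here were sorted from mouse mammary glands 1 week after ablation of luminal cells, and the question was how far the 2 lineages stood apart in those glands. They are the wells of the deposited count table that the labels assign to a single luminal or basal cell after doxycycline and that passed 3 limits: 100000 or more reads in genes, 1000 or more genes, and a mitochondrial share of 20% or less. Of 182 such wells 147 were kept, out of 319 kept among 374 single-cell wells and 384 samples in the series. In the basal group 20 of 91 wells had too few reads, and in the luminal group 12 of 91 had too few reads and 3 too large a mitochondrial share.

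Every mouse in the series carries the strain label K8rtta/TetO-DTA/K5CreER/Rosa-Tomato on a mixed background, the wild-type (WT) controls included. In this system the keratin 8 promoter drives the transactivator rtTA, which with doxycycline switches on diphtheria toxin A, and a Cre driven by the keratin 5 promoter switches on the Tomato reporter. Doxycycline was given into the ducts at 0.2 mg, and the labels name no injection for WT glands. Cells were sorted as Tomato-positive, negative for CD45, CD31 and CD140a, and by CD29 and EpCAM. The labels name no sex, age or animal for any well, nor the day on which Cre was induced. Each group therefore counts as 1 sample, cells are not replicates, and no test between groups was possible: the intervals below cover counting error only. Tomato marks cells in which this Cre was active and their descendants, so the gate bears on descent. Since the day of induction is not named, labelled luminal cells that survived doxycycline and ones formed after it cannot be told apart. WT luminal (43 cells) and WT basal (44 cells) wells serve as the reference for the separation of the lineages without ablation, and treatment, animal and plate position cannot be told apart in that comparison.

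The mammary duct has 2 epithelial layers. Basal, or myoepithelial, cells lie on the basement membrane, hold keratins 5, 14 and 17 and a smooth-muscle-like contractile apparatus, and squeeze milk along the duct. Luminal cells line the lumen, hold keratins 8, 18 and 19 with apical tight junctions, and divide into hormone-sensing cells, which carry receptors for sex steroids and prolactin, and secretory progenitors of the alveoli. In adult glands each layer mostly renews itself, and basal cells are known to give rise to luminal cells when the luminal layer is lost or when they are transplanted.

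Basal cells held 153340 to 2143906 reads in genes (median 677373) and a median of 4503 genes per cell, and luminal cells 150410 to 2372768 reads (median 1085297) and 6389.5 genes. Basal wells filled plate lines E to I and luminal wells lines I to M, so that plate position and group go together except in line I, which held 4 basal and 9 luminal kept cells. The 5 negative control wells held 7930 to 13572 reads. Their means per well included 142 reads of Spp1, 113.6 of Csn3, 90.4 of Krt18, 66.8 of Csn1s1, 27.2 of Acta2 and 18.8 of Krt14. Wells that might hold more than 1 cell were not searched for. Of the markers of other cell types, Ptprc (CD45) had no read in either group. The 18 immune and 12 endothelial markers summed to a median of 0 CPM in basal cells, and the endothelial ones to 0.630 CPM in luminal cells. The highest single cells reached 854 CPM (immune) and 855 CPM (endothelial) in the basal group, and 252 and 445 CPM in the luminal group. In basal cells fibroblast markers were a different matter and are given beside the matrix genes below.

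A level is the sum of a gene's reads in a group over all reads in genes there, in CPM (counts scaled to a common library total), and a ratio is log2 of luminal over basal after 10 CPM was added to both, so that positive values are higher in luminal cells. Since CPM is not divided by length, it is compared only within a gene. A gene was called when the ratio reached 4-fold. Among 11106 measured genes, whose mean over the 5 single-cell groups reached 5 CPM, 501 (4.51%) were called on the luminal side and 336 (3.03%) on the basal side, 7.54% either way, against 852 (7.67%) and 751 (6.76%) between the WT groups. The calls after ablation split 404 to 389 under TMM scaling and 394 to 400 under median-of-ratios scaling. With as many cells per group as in WT, a choice made after seeing the data, they numbered 658 and 460. These cells were the first in plate order, so plate position changed along with cell number. Of all measured genes 6350 had ratios above 0 and 4755 below 0. The median ratio of all measured genes was 0.16 as counted and 0.02 under TMM, so list medians within that shift of 0 have no settled sign. In neither condition was there a measured gene whose luminal and basal cells did not overlap: 0 of 11106.

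The 2 lineages were still apart in every cell when many genes were read together, by a smaller distance than that of the WT cells that chose the genes. To place each cell, 302 luminal and 162 basal lineage genes were chosen on WT cells alone, as genes 4-fold or more apart with 50 CPM or more in the higher group, detected there in 25% or more of the cells, and with detecting shares 20 points or more apart. A cell's lineage position is its mean log2(CPM + 10) over the luminal genes minus that over the basal genes. Basal cells after ablation lay at -3.90 (lowest), -2.76 (median, 95% interval -2.99 to -2.71) and -1.93 (highest). Luminal cells after ablation lay at -1.21, 0.56 (0.36 to 0.82) and 1.56. The highest basal and the lowest luminal cell were 0.72 apart, so the groups did not overlap, and the medians differed by 3.31. WT basal cells, at -3.73, -2.79 and -1.56, and WT luminal cells, at 0.80, 1.78 and 2.37, left a gap of 2.37 between them and a difference of medians of 4.57, but these cells chose the genes and their distance is a description. Genes chosen as far apart in some cells tend to be less far apart in cells not used for the choice. How much of the smaller distance after ablation comes from this choice was not tested.

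**Figure D1:**
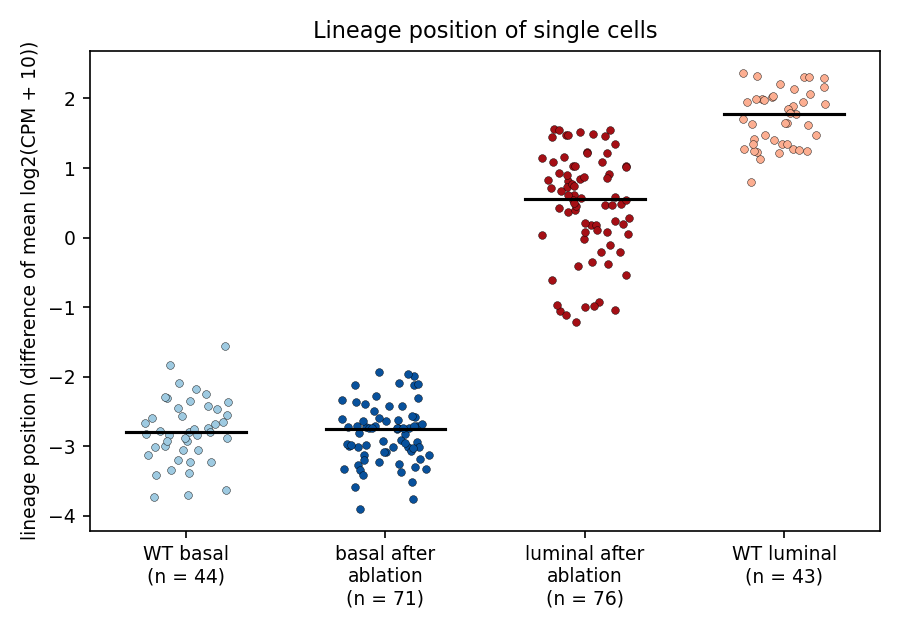
Lineage position (mean log2(CPM + 10) of luminal lineage genes minus that of basal lineage genes, y axis) of each kept cell in the 4 groups (x axis); points are cells and bars are medians. Basal cells after ablation lie with WT basal cells around -2.76, and luminal cells after ablation spread from -1.21 to 1.56, below most WT luminal cells.

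On this score most luminal cells, but no basal cell, lay between the WT ranges. All 71 basal cells were at or below the highest WT basal cell, and 2 of them were below the lowest. Of the 76 luminal cells 29 (38.2%, exact Clopper-Pearson 95% interval 27.2 to 49.98) reached the lowest WT luminal cell. The other 47 lay between the WT ranges, 17 of the 76 were below 0, and 0 were within the WT basal range, which by the limit of 3 cells allows a share of up to 3.95% (exact upper bound 4.74%). These counts turn on the genes used: with the contractile, basal keratin, simple keratin and junction lists in place of the WT lineage genes, 56 luminal cells were within the WT luminal range, 10 between the ranges and 10 at or below the highest WT basal cell. In plate line I alone, 0 of 9 luminal cells reached the WT luminal range and 9 were between. Cells of the hybrid gate, which was sorted from the same condition, spread from the range of the basal cells into that of the luminal cells. They ran from -3.42 through a lower quartile of -1.77 and a median of -0.85 to 0.97.

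Beside WT luminal cells, luminal cells after ablation differed more in the level of basal genes than in that of luminal genes. Their mean level of luminal lineage genes had a median of 5.58 on the log2(CPM + 10) scale, against 5.76 in WT luminal cells and 3.91 in basal cells after ablation. Their mean level of basal lineage genes had a median of 4.92, against 4.02 in WT luminal cells, and its range of 3.99 to 6.46 crossed that of basal cells, 5.71 to 8.02. In basal cells both parts had higher medians than in WT basal cells, and these offset each other in the position: 6.81 against 6.49 for basal genes, and 3.91 (3.86 to 3.99) against 3.68 (3.66 to 3.72) for luminal genes. Luminal lineage genes were chosen as low in WT basal cells, and basal lineage genes as low in WT luminal cells. That choice alone favours higher levels of these genes in cells not used for it, and its part was not tested. The luminal cell lowest in position held 11666 CPM of Krt14 and 1037 CPM of Krt6a beside 119 CPM of Krt8 and 21.7 CPM of Krt19. The luminal cell highest in position held 10.7 CPM of Krt14 and 18958 CPM of Krt19.

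**Figure D2:**
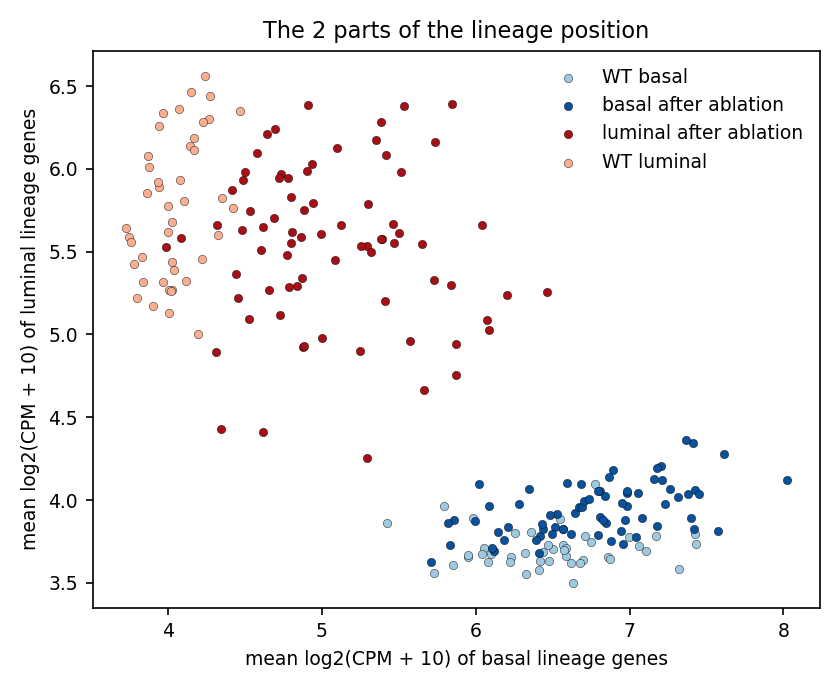
Mean log2(CPM + 10) of the basal lineage genes (x axis) and of the luminal lineage genes (y axis) in each kept cell of the 4 groups. Luminal cells after ablation keep the height of WT luminal cells (medians 5.58 and 5.76) and extend to the right (medians 4.92 and 4.02), and basal cells after ablation stay at the foot of the plot.

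Gene by gene, 130 of the 302 WT luminal lineage genes (43.05%) and 71 of the 162 basal ones (43.8%) were 4-fold or more apart after ablation in the WT direction. A further 97 luminal and 31 basal genes were within 2-fold, and 22 and 8 had the opposite sign. The median ratio of the luminal genes was 1.70 after ablation and 3.03 in WT, and that of the basal genes -1.67 and -3.62. Both groups had part in this: the median level of the luminal genes was 25.4 CPM in basal cells (WT 6.65) and 101 CPM in luminal cells (WT 156), and that of the basal genes 70.6 CPM in luminal cells (WT 13.8) and 326 CPM in basal cells (WT 354). The genes were picked on their WT ratios, so the WT medians are no independent measure. Applied to the ablated cells themselves, the same rule gave 255 luminal and 129 basal genes, of which 99 (38.8% of the 255, 32.8% of the 302) and 65 (50.4% of the 129, 40.1% of the 162) were also WT lineage genes. Of the 255 luminal genes 69 were within 2-fold in WT, and of the 129 basal genes 11.

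**Figure D3:**
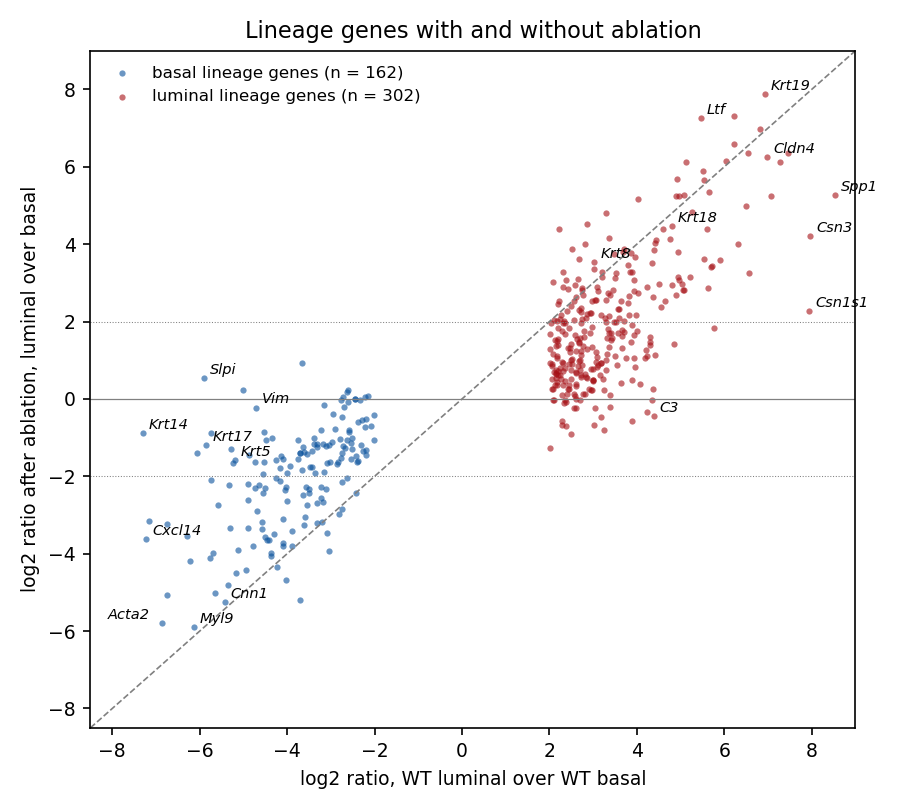
Log2 ratio of luminal over basal cells in WT glands (x axis) and after ablation (y axis) for the 302 luminal and 162 basal lineage genes; each point is a gene, the dashed line marks equal ratios and dotted lines mark 4-fold. Acta2 and Myl9 lie near the dashed line, and Krt14, Krt17, Krt5 and Slpi lie between the dotted lines.

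The contractile apparatus kept the lineages apart. All 15 measured members of the list had ratios below 0 and 11 were called higher in basal cells, with a median of -3.94 (WT -4.02), beside 3.03% called among all genes. Acta2 (chr19:34241090-34255590, GRCm38), the smooth-muscle actin, was at 43.9 CPM in the lowest, 12725 in the median and 37363 in the highest basal cell, and at 4.07, 15.8 and 3039 CPM in luminal cells. Only the ends of the groups overlapped, and the summed levels were 16591 (Poisson 95% interval 16558 to 16624) and 288 CPM (284 to 291), a ratio of -5.80 (WT -6.86). After every cell was thinned to 100000 reads, with 5 reads needed for detection, 71 of 71 basal and 20 of 76 luminal cells detected Acta2. WT luminal cells did so in 10 of 43, so that the luminal share of 26.3% is near that of cells that should lack the gene. The summed level in luminal cells was nevertheless above the 36.7 CPM of WT luminal cells, and 5 cells held 70.5% of it.

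Myl9, the regulatory light chain of smooth-muscle myosin, was at 2.33, 2043 and 6441 CPM in the lowest, median and highest basal cell and at 0, 2.38 and 534 CPM in luminal cells, a ratio of -5.90 (WT -6.14). It was detected in 65 of 71 basal and 9 of 76 luminal cells, and the luminal level was 30.1 CPM against 3.22 in WT luminal cells, 0 of 43 of which detected it. Cnn1, the actin-binding calponin, had a ratio of -5.25 (WT -5.43) and 48.6 CPM in luminal cells against 2.38 in WT luminal cells. The ratio was -5.03 (WT -5.64) for the myosin kinase gene Mylk and -4.80 (WT -5.35) for the heavy chain gene Myh11. Tagln, the actin cross-linker SM22, was detected in 61 basal and 3 luminal cells (ratio -3.94, WT -3.05). Actg2, the enteric smooth-muscle actin, had a ratio of -4.52 with only 14.2 CPM in WT basal against 351 CPM in basal cells after ablation, and its reads can be shared with Acta2, a near-identical copy.

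Genes of this group are known targets of serum response factor, which binds the CArG box, so the stretches before the start sites of the called pair with the lowest ratios were read from RefSeq (GRCm38.p6). They are shown because these genes had the lowest ratios of all measured genes, and capitals mark matches to CCNNNNNNGG with at least 5 of the 6 middle letters A or T, a pattern that reads the same way on both strands. The Acta2 stretch is chr19:34255388-34255467 on the minus strand, before the RefSeq start but inside the GENCODE span given above, which starts further upstream, and the Myl9 stretch chr2:156775293-156775384 on the plus strand.
Acta2: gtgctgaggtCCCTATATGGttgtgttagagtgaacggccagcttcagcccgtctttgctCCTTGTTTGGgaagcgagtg
Myl9: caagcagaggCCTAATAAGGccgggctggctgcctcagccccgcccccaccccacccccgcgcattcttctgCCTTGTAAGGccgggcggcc
Such a match occurred in the 250 bases before the start of 3 of 13 contractile genes with a sequence in the table (23.1%), 4 of 15 tight junction and apical genes (26.7%), 0 of 5 simple-epithelium keratins and 0 of 2 basal keratins, and in 2643 of all 27025 genes (9.78%). A match is a run of letters and does not show binding.

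The basal keratins Krt14, Krt17, Krt5 and Krt15, by contrast, were under 4-fold apart in summed level. Part of the luminal cells held Krt14 at basal levels, while the median cells of the groups stayed apart. Krt14 (chr11:100203162-100207548), which pairs with keratin 5 in the basal layer, was at 19.8 CPM in the lowest, 4220 in the median and 27026 in the highest basal cell. In luminal cells it was at 4.45, 283 and 37055 CPM, so that the highest luminal cell exceeded every basal cell, and the 5 luminal cells with most of it held 48.9% of its luminal reads. The summed levels were 7189 and 3920 CPM, a ratio of -0.87, against -7.30 in WT, where luminal cells were at 35.4 CPM. Krt14 was detected in 47 of 76 luminal cells (61.8%, 49.98 to 72.8) and in 3 of 43 WT luminal cells.

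Krt17, a keratin of activated and myoepithelial cells, was likewise detected in 47 luminal cells, with 1761 CPM against 4019 in basal cells (ratio -1.19, WT -5.86). Krt5 was at a median of 3.52 CPM in luminal cells, detected in 18 of 76, and at 483 CPM in basal cells, detected in 52 of 71 (ratio -1.58, WT -5.20). Krt15, a keratin of basal progenitors, had a ratio of -1.29 (WT -3.67) and was detected in 25 luminal and 24 basal cells, while in WT 0 of 43 luminal and 2 of 44 basal cells did so. Krt6a, a keratin of injured epithelium, ran the other way: 25 of 76 luminal and 0 of 71 basal cells detected it (238 and 0.187 CPM, ratio 4.61, WT 0.39). Krt16, its usual partner, was at 267 and 22.8 CPM (3.08), in 18 luminal and 3 basal cells. The basal keratin list thus had a median of -1.03 (WT -4.43). Of its 6 measured members 2 were called higher in luminal and 0 in basal cells, beside 4.51% and 3.03% of all genes. Reads of Krt14, Krt16 and Krt17, and of Krt6a and Krt6b, can be shared between near-identical copies.

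This pattern was not the same in every part of the data. In luminal cells the median Krt14 level was 3399 CPM in plate line I, 1102 in J, 164 in K, 71.2 in L and 27.8 in M, and the detecting cells were 8 of 9, 14 of 20, 14 of 23, 10 of 20 and 1 of 4. Krt5 medians went from 37.9 CPM in line I to 5.45, 3.05, 1.84 and 2.32 in J to M. Krt18 had medians of 3618, 6789, 4324, 6358 and 6324 CPM in the same lines, and the median number of reads per cell was 1411934 in line I, 940457.5 in L and 1091981 in M. In basal cells the Krt14 medians of lines E to I lay between 3076 and 5079 CPM. In the libraries of many cells, Krt14 was at 165 CPM in the luminal and 5717 CPM in the basal one, a ratio of -5.03, whereas plate line I alone gave 0.32, and Krt5 at 4.56 and 355 CPM, a ratio of -4.65. The part of plate position in the Krt14 level was not tested.

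**Figure D4:**
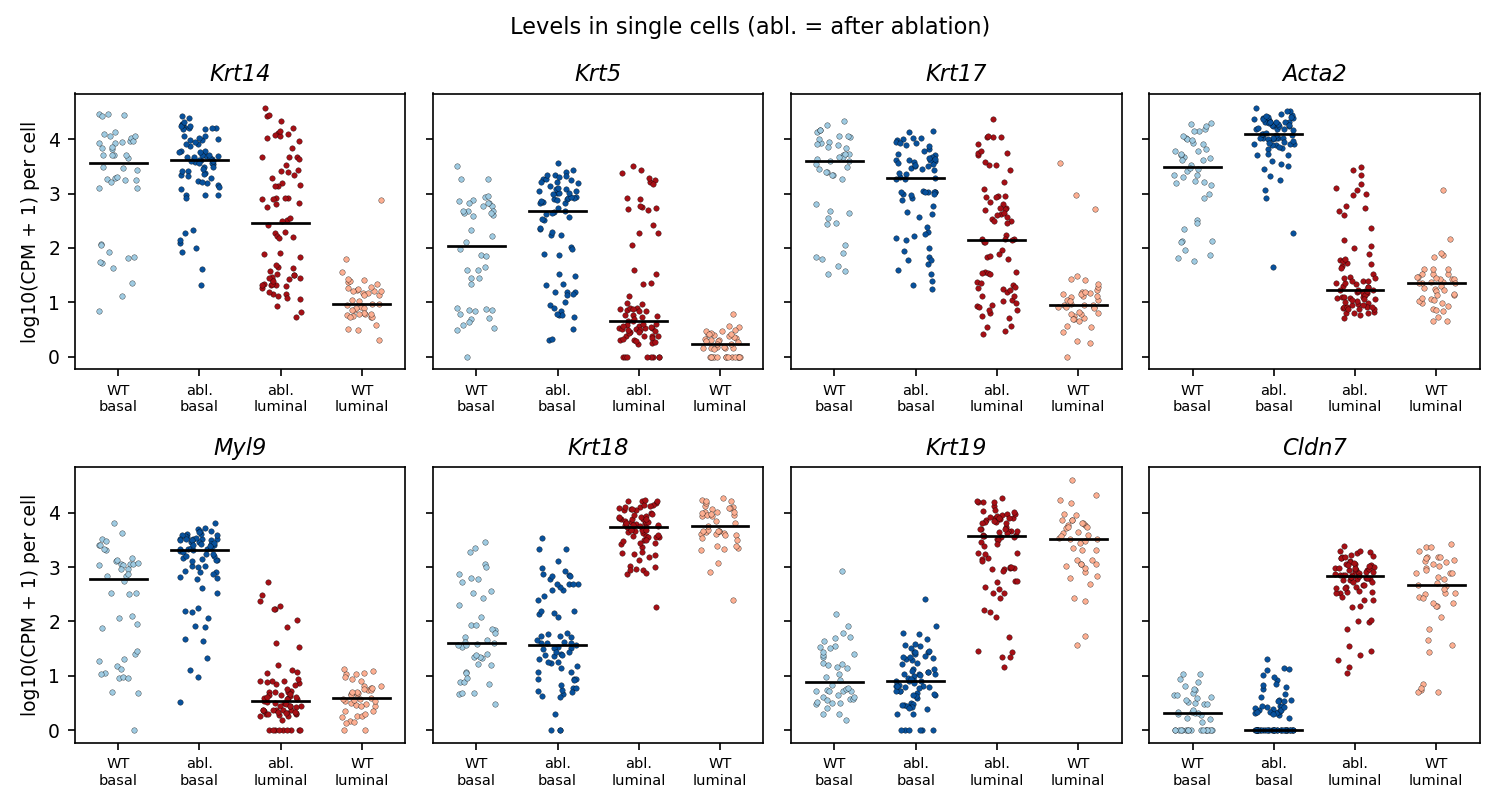
Level of 8 genes in each kept cell as log10(CPM + 1) (y axis) in WT basal cells, basal and luminal cells after ablation and WT luminal cells (x axis); points are cells and bars are medians. Luminal cells after ablation spread over the whole range of basal cells for Krt14 (4.45 to 37055 CPM), stay low for Acta2 and Myl9 in most cells, and have medians near those of WT luminal cells for Krt18, Krt19 and Cldn7, with the lowest Krt19 at 13.8 CPM against 36.3 in WT.

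Many cells held keratins of both lineages. In 47 of 76 luminal and 32 of 71 basal cells both Krt14 and Krt18 were detected, against 3 of 43 luminal and 18 of 44 basal cells in WT. With 1 read as the limit these were 69 and 60 cells, against 28 and 34 in WT, and with 5 reads and no thinning 76 and 62, against 40 and 42 in WT, so that the looser limits also took in most WT luminal cells. All 76 luminal cells detected Krt18, so the count in luminal cells is that of Krt14. Of the 23 basal keratin and contractile genes a luminal cell detected a median of 5.5 (1 to 11), a WT luminal cell 1 (0 to 6) and a basal cell 13 (6 to 18). For the contractile genes alone the medians were 3 of 16 in luminal cells, 1 in WT luminal cells and 10 in basal cells. Krt14 and Acta2 were detected together in 15 luminal cells, so 32 of the 47 luminal cells with Krt14 had no Acta2 at this depth. Of the 27 simple keratin and junction genes a basal cell detected a median of 3 (0 to 8), as did a WT basal cell, and a luminal cell 14 (6 to 20). Luminal cells had the deeper libraries and more genes per cell, and the part of wells with more than 1 cell in these counts was not tested.

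Most simple-epithelium keratins and junction proteins kept large ratios. Krt19 (chr11:100140810-100148665), the smallest keratin of simple epithelia, was at 13.8, 3756 and 18958 CPM in the lowest, median and highest luminal cell and at 0, 7.03 and 261 CPM in basal cells. Its summed levels of 5185 (5170 to 5201) and 12.2 CPM (11.3 to 13.1) gave the highest ratio of all genes, 7.87 (WT 6.93). Krt7 had a ratio of 6.58 (WT 6.21), and Krt18 and Krt8, the pair that fills the luminal cytoplasm, 4.46 (WT 4.80) and 3.55 (WT 3.03). The smaller ratios of the pair went with basal cells that held them: 32 of 71 basal cells detected Krt18 and 44 detected Krt8, against 4 for Krt19 and 1 for Krt7. Krt23, the remaining measured keratin of the list, had 93.7 CPM in luminal cells and 141 in basal ones (-0.54, WT -2.35).

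All 21 members of the tight junction and apical list had ratios above 0 and 12 were called, with a median of 2.61 (14 called in WT, median 2.35) beside 4.51% called among all genes. Cldn7, a claudin that seals the space between luminal cells, was at 10.4, 695 and 2402 CPM in luminal and at 0, 0 and 19.6 CPM in basal cells, with 71 of 76 and 0 of 71 cells detecting it. This is a ratio of 6.14 (WT 6.04) and the largest difference in detecting cells among genes higher in luminal cells. Cldn4 had a ratio of 6.26 (WT 6.97) and Cldn3 4.98 (WT 6.49). Muc1, the apical mucin, was lower in luminal cells after ablation (124 CPM) than in WT (677 CPM), and its ratio was 3.60 (WT 5.90). Among the antigens of the sort, Epcam had a ratio of 3.02 and was detected in all 76 luminal and 48 basal cells, and Itgb1 (CD29) had a ratio of -0.91 in 58 luminal and 50 basal cells, but a gate set these groups.

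Both luminal programs were present in the luminal cells, in part of them each. Of 15 measured hormone-sensing genes 11 were called higher in luminal cells, beside 4.51% of all genes, and all 15 were above 0 (median 3.26, WT 3.57). Areg, the growth factor that relays oestrogen signals, was at 879 CPM against 0.949 in basal cells (ratio 6.34, WT 4.23), in 31 of 76 and 0 of 71 cells. Prlr, the prolactin receptor, had a ratio of 5.67 in 36 luminal cells, and Cited1, a co-activator of oestrogen receptor, 5.25 in 31. The steroid receptor genes had smaller ratios: Esr1 was at 95.2 and 66.7 CPM (0.46, WT -0.02, and -2.83 in plate line I alone) and Pgr at 97.1 and 41.5 CPM (1.06, WT 1.28).

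Of 19 measured alveolar and milk genes 12 were called higher in luminal cells, against 17 in WT, and the median was 2.96 (WT 4.38). Caseins were lower than in WT: Csn3 was at 723 CPM in luminal cells after ablation and 11416 in WT, with ratios of 4.21 and 7.96, and Csn1s1 at 140 and 8152 CPM, with ratios of 2.26 and 7.93. Csn1s1 was detected in a smaller share of luminal (9.21%) than of basal cells (15.5%), and Csn2 rested on 3 luminal cells. Casein and Spp1 reads were also present in the negative wells, and their part in the basal levels and shares was not tested. With negative wells subtracted the ratio of Csn3 was 4.97. Spp1, osteopontin, was at 2017 CPM against 20123 in WT luminal cells, and 5 cells held 82.7% of it. Ltf, lactoferrin, was kept, with a ratio of 7.25 (WT 5.46), in 27 of 76 luminal and 2 basal cells. Kit, a receptor of luminal progenitors, had a ratio of 4.04 (WT 4.42), in 25 and 0 cells. The alveolar median was 0.59 in the libraries of many cells and 1.62 in plate line I.

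In the list of basal transcription factors 6 of 11 measured members were called higher in basal cells, beside 3.03% of all genes (median -2.51, WT -1.47, and -0.94 in plate line I). For Trp63, the p63 gene that maintains basal epithelia, the level was 354 CPM in basal cells, 29 of which detected it, and 49.1 CPM in luminal cells, with 13 detecting (-2.62, WT -4.91). Id4, an inhibitor of helix-loop-helix factors, was detected in 54 of 71 and 19 of 76 cells (-3.10, WT -4.09), and Egr2 in 41 and 12 (-3.79, WT -3.88). Sox9 was held by both groups (373 and 345 CPM, -0.11, WT -1.47). Of 18 luminal factors 5 were called higher in luminal cells, beside 4.51% of all genes. Ehf (ratio 4.51) and Foxa1 (3.79) were among them. Gata3, which maintains luminal cells, had 385 CPM in luminal cells and 449 in basal ones (-0.22, WT 0.31), and Elf5, the alveolar factor, had a ratio of 1.71 (WT 3.56) with 22.9 CPM in luminal cells against 111 in WT.

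Matrix genes set the basal cells apart, some of them by more than in WT. Of 18 measured secreted matrix genes 11 were called higher in basal cells (9 in WT), with a median of -2.64 (WT -1.85). Among all genes the shares called were 3.03% and, in WT, 6.76%. Sparc, a collagen-binding glycoprotein, was at 574, 6017 and 15346 CPM in the lowest, median and highest basal cell and at 1.09, 17.7 and 3151 CPM in luminal cells. Its ratio was -4.19 (WT -6.22), with 1340 CPM in WT basal cells against 6605 after ablation. Basal cells held 440 CPM of Fmod, the collagen-binding proteoglycan fibromodulin, and luminal cells 0.172 CPM, with 29 of 71 and 0 of 76 cells detecting it. WT basal cells held 1.84 CPM of it in 0 of 44 detecting cells, so its ratio of -5.47 stood beside -0.18 in WT. Dcn, decorin, had a ratio of -4.20 (WT -0.50), in 36 basal and 4 luminal cells.

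Basement membrane genes, which basal cells lay down beneath the duct, had 8 of 17 members called higher in basal cells, beside 3.03% of all genes (median -1.88, WT -2.04). The type IV collagen chains Col4a1 and Col4a2 had ratios of -4.47 and -4.43 (WT -2.86 and -1.97), and their basal levels were 551 and 571 CPM against 172 and 86.4 in WT basal cells. Dcn, Mmp2, Col1a2 and Pdgfra also mark fibroblasts. Of 8 measured fibroblast markers 5 were called higher in basal cells, again beside 3.03% (median -2.44, WT -1.71). The 12 markers summed to 0.993, 1924 and 14028 CPM in the lowest, median and highest basal cell and to 0, 5.38 and 2966 CPM in luminal cells. Of them Lum and Dpt had no read in either group. All 71 basal cells detected Acta2 and 69 detected Krt14. The part of fibroblasts, or of wells with more than 1 cell, in these levels was not tested. Pdgfra, whose product CD140a the sort excluded, was detected in 6 basal cells. Without the cells that detect Pdgfra, left out after seeing the data, the fibroblast median was -1.67 and Dcn was at -4.07. Pdgfra is itself a member of that list, so its removal lowers the list by construction. In plate line I alone the secreted matrix and fibroblast medians were -0.32 and -0.01.

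Some of the genes that parted the lineages after ablation were within 2-fold of each other between the WT groups. On the luminal side the largest by the rule were Pir (ratio 5.37, WT 0.88), an iron-binding nuclear protein, Krt6a (4.61, WT 0.39), the annexin gene Anxa8 (3.92, WT 0.44), Srxn1 (3.78, WT 0.77), which repairs oxidised peroxiredoxins, the sulfide quinone oxidoreductase gene Sqor (3.74, WT -0.68) and Aktip (3.69, WT 0.88). Each was detected in 22 to 32 luminal cells and in at most 1 basal cell. In WT, all but Krt6a were present in both lineages (Anxa8 at 128 and 91.3 CPM, Sqor at 60.3 and 102 CPM), and their basal levels after ablation were 0.288 to 3.48 CPM. On the basal side the largest were Fmod, Dcn, the proteoglycan gene Vcan (-3.23, WT -0.89), the alkaline phosphatase gene Alpl (-3.12, WT -0.79), Cavin2 (-3.05, WT -0.82), a caveola coat protein, and Fam20a (-3.02, WT 0.30). In the libraries of many cells Srxn1 had a ratio of -3.14, and Pir (1.63), Anxa8 (0.88), Aktip (1.70), Vcan (-1.73) and Alpl (-1.15) were under 4-fold.

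Conversely, some WT lineage genes were within 2-fold after ablation, and those of them with the largest WT ratios are named here. On the basal side these were Krt14, Slpi, a protease inhibitor (0.55, WT -5.90), Emb, a cell adhesion protein (-0.89, WT -5.74), Pla2g7, a secreted phospholipase (0.23, WT -5.00), Vim, the mesenchymal intermediate filament (-0.22, WT -4.71), and Msn, which links actin to the membrane (-0.85, WT -4.54). In luminal cells Slpi was at 1.73, 484 and 20585 CPM in the lowest, median and highest cell, against 55.9 CPM summed over WT luminal cells, and Vim at 248 CPM against 10.4. On the luminal side they were C3, the complement component (-0.44, WT 4.38), Csn1s2a, Slc27a1, Ccrl2, Arhgef6 and Nadk. For all 6 the luminal level was lower than in WT, as with C3 at 61.2 CPM against 225 and Csn1s2a at 2.25 against 213 CPM. For all but Csn1s2a the basal level was also higher than in WT, with C3 at 86.5 CPM against 1.23, Slc27a1 at 66.02 against 0.736 and Nadk at 60.6 against 3.64 CPM. These values depended on the cells used. In the libraries of many cells Slpi was at 4.55, Emb at -4.98, Pla2g7 at -3.41, C3 at -4.03, Arhgef6 at -4.36, Ccrl2 at 3.08 and Slc27a1 at -2.69. In plate line I Vim was at 3.41, Slpi at -1.72 and Emb at 1.09, and with as many cells as in WT Slpi was at 2.11.

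**Figure D5:**
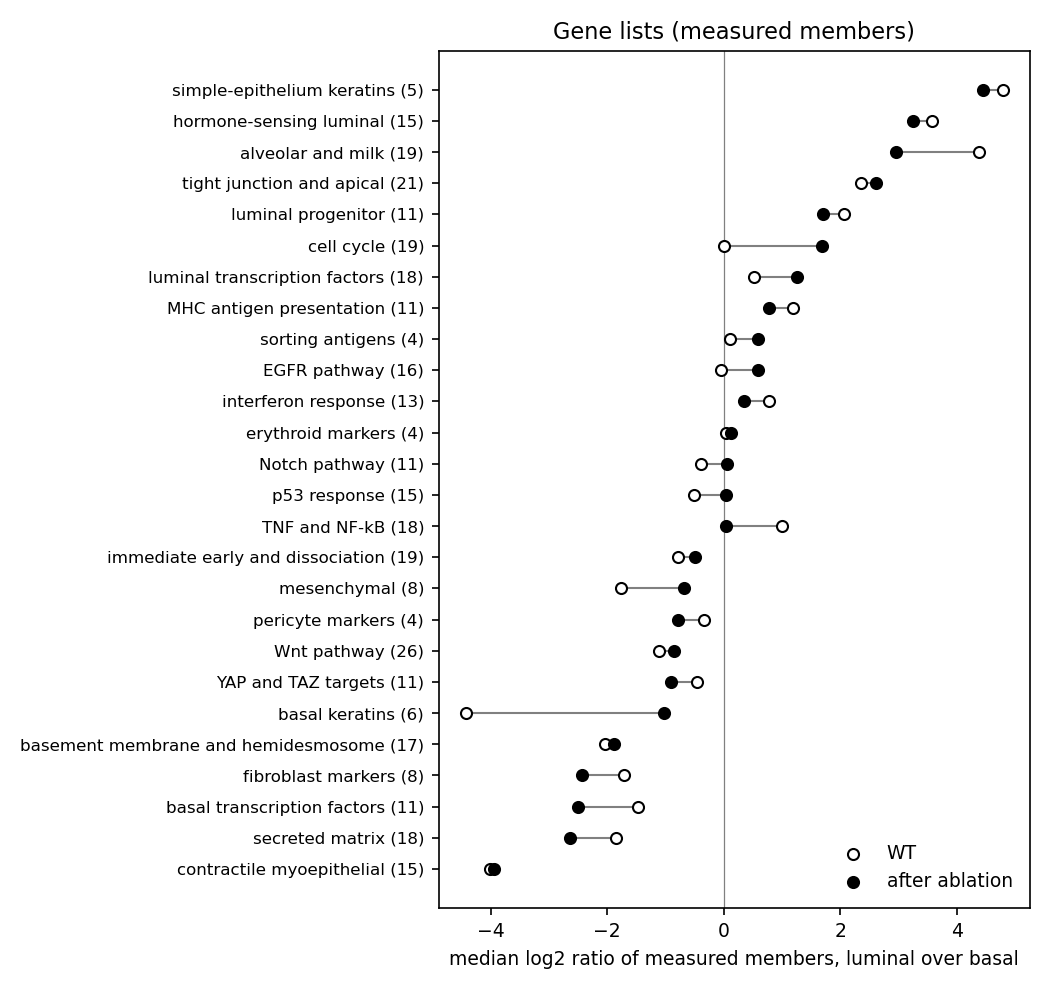
Median log2 ratio of luminal over basal cells (x axis) for the measured members of each gene list (y axis, number of measured members in parentheses), in WT glands (open) and after ablation (filled); lists with fewer than 4 measured members are left out. The contractile list stays at -3.94 (WT -4.02), the basal keratins move to -1.03 from -4.43, and the cell cycle list lies at 1.69 (WT 0.00).

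Cell cycle genes were on the luminal side after ablation. All 19 measured members were above 0 and 7 were called higher in luminal cells, beside 4.51% of all genes (median 1.69, WT 0.00, and 3.19 after ablation with no CPM added and genes without reads at the floor of 3 reads over the group). Of the 24 members, 6 had no read in basal cells. A gene absent from most groups counts as measured only through a group where it is high. The filter thus favours ratios above 0 here, and these counts are a description. Cdk1, the mitotic kinase, was detected in 8 of 76 luminal cells (67.3 CPM) and 0 of 71 basal cells (0.0848 CPM), and 5 cells held 82.3% of its luminal reads. Top2a, which untangles replicated DNA, was at 43.7 CPM in luminal cells, detected in 7 cells, and had no read in 71 basal cells, where 3 reads correspond to 0.0509 CPM. Rrm2, which supplies nucleotides for replication, was detected in 11 luminal and 0 basal cells. The list's median was 0.00 in the libraries of many cells and 3.50 in plate line I.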

How the data were processed

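Smart-seq2 libraries were made from single sorted cells. The authors deposited raw read counts per gene and well, without normalization. Tools listed in the submitters' processing notes are STAR 2.5.2b, HTSeq 0.6.0, cutadapt 1.13 and Seurat, with the GRCm38 build and no roles. Which annotation was counted is not given in the sources read. Of 49585 gene identifiers 49326 had a symbol in GENCODE M21, and 92 spike-ins, with 11 reads, were not used. Kept cells were summed per group (58980064 reads in basal and 86978845 in luminal cells, so that 3 reads are 0.0509 and 0.0345 CPM). CPM carry exact Poisson and shares exact Clopper-Pearson 95% intervals, which cover counting error only. Python 3.11.15, numpy 2.4.6, scipy 1.17.1 and, for TMM, edgeR 4.0.16 were used. The steps were tested on simulated data.

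No test was run, since the labels tie no cell to an animal. Genes were named as the 10 highest and 10 lowest ratios (at least 50 CPM, detection in 25% of cells, 20 points between shares), the 6 largest differences in shares each way, the 6 largest ratios each way within 2-fold in WT, the 6 WT lineage genes each way within 2-fold after ablation, set genes, and up to 4 members of each of 30 lists. Members and lists were chosen with earlier results of these data known. Alternatives changed read, gene and mitochondrial limits, scaling, added CPM, detection, lineage genes, plate line, cells or libraries.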

Additional observations from a re-analysis of the deposited data

Results flagged for a closer look

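The sign of the luminal over basal ratio was opposite in WT glands and after ablation for 2 named genes with ratios past the limits of the rule, and in both cases the difference was not tested, since each group is 1 sample. Des, the muscle intermediate filament desmin, had a ratio of -1.77 after ablation and 1.34 in WT, and rested on 1 detecting basal cell at 797 CPM. Mcm3, a subunit of the replicative helicase, had a ratio of 2.49 after ablation (74.4 CPM in luminal cells, 11 of which detected it, and 5.05 CPM in basal cells, with 1 detecting) and -1.25 in WT (8.92 and 34.98 CPM).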

How the results depend on the processing

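No paired analysis was possible because no number in the labels ties luminal wells to basal wells. Of 96 named genes 4-fold or more apart, all 96 kept their sign under the read, gene and mitochondrial limits, scalings, weights, added CPM, removal of the top cell, subtraction of negative wells, equal cell numbers and removal of cells with Pdgfra. In plate line I alone (4 basal and 9 luminal cells) 7 had the opposite sign (Nid1 0.42, Aldh1a3 -0.041, Vcan 0.41, Snai2 0.86, Pdgfra 1.53, Lama1 0.67, Rnf43 0.079), and in the libraries of many cells 6 (Hbegf -0.96, Irf7 -0.98, Spp1 -1.04, Srxn1 -3.14, Krt16 -4.07, Csn2 -0.25). The cause of these reversals was not tested. The sign was kept by 86 of the 96 genes in each of these 2 settings. Past 4-fold with the same sign were 70 in line I and 68 in the libraries of many cells. Calls higher in luminal and in basal cells were 1566 and 840 with 1 CPM added, 3020 and 837 in line I, 1595 and 873 in the libraries of many cells, and 591 and 268 without the top cell of each gene. The difference of median positions was 5.22 with 1 CPM added, 4.10 with lineage genes at 8-fold and 5.38 with fixed lists. Under the fixed lists 56 luminal cells were in the WT luminal range, 10 between and 10 at or below the highest WT basal cell. With the WT lineage genes, 0 of 9 luminal cells in line I reached the WT luminal range and 9 were between. Luminal and basal cells with both Krt14 and Krt18 were 69 and 60 at 1 read and 76 and 62 without thinning, and basal ones 21 at 20 reads. A gene with under 3 reads in a group has no measurable level there.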

Other observations

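Signalling lists had medians closer to 0 than the keratin, junction and contractile lists. Of 26 measured Wnt pathway genes 6 were called higher in basal cells and 1 in luminal cells, beside 3.03% and 4.51% of all genes. The median was -0.85 (WT -1.10, and 0.05 in plate line I). The receptor gene Lgr5 had a ratio of -2.29 (WT -4.73), in 27 of 71 basal and 16 of 76 luminal cells, the receptor gene Lgr6 -2.81 (WT -1.33) and the Frizzled gene Fzd7 -2.70 (WT -3.31). The secreted Wnt inhibitor Wif1 had 841 CPM in basal cells and 27.5 in luminal ones (-4.50, WT -5.17). In the Notch list the ligand genes Dll1 (-3.35, WT -4.57) and Jag2 (-3.19, WT -1.59) were called higher in basal cells and the receptor gene Notch3 (2.09, WT 2.29) in luminal cells, while the list's median of 0.05 was within the shift between scalings.

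Of 16 measured EGFR pathway genes 5 were called higher in luminal cells, beside 4.51% of all genes. Beside Areg, these included the ligand genes Epgn (4.16, WT 1.97), in 15 luminal and 1 basal cell, Hbegf (2.26, WT 0.05), in 46 and 13 cells, and Btc (2.17, WT 0.62), in 9 and 0 cells. Immediate early genes, which are known to be induced while tissue is dissociated, were at high levels in both groups. Their 19 members summed to a median of 23824 CPM over basal and 11875 CPM over luminal cells. Of the 19, 3 were called higher in basal cells, beside 3.03% of all genes. Fos had 8570 CPM in basal cells and 2090 in luminal ones (-2.03, WT -0.75), and Socs3, a feedback inhibitor of cytokine signalling, was detected in 65 of 71 and 28 of 76 cells (-3.20, WT -3.31). The chemokine gene Ccl2 had 139 CPM in basal cells and 0.161 in luminal ones (-3.88, WT -3.86), in 12 and 0 cells.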
